A study of Mus musculus with 2 samples.

Results

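Mir132 and Mir212, a pair of microRNA genes at 1 locus that is known from neurons and from cardiac hypertrophy, were described in embryonic mouse heart beside 6 genes known from neural and endocrine tissue, Mir128-1, Mir128-2, Mir137, Mir375, Mir7-1 and Mir9-2. The 8 genes were taken by symbol, and all 8 were found among the 1973 microRNA genes of the count tables. RNA of microRNA size had been sequenced from hearts of B6NCrl embryos at embryonic day 12.5, with both sexes mixed. The samples were 1 group of 2 biological replicates, each 1 library from its own tissue sample, with no treatment, mutation or control tissue. No comparison between conditions was therefore possible, and the questions were how high each gene stood and how far the replicates differed.

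MicroRNAs are cut from a hairpin precursor. Either strand of the hairpin stem, called the 5p or the 3p arm, can be loaded into an Argonaute protein, and bases 2 to 8 of the loaded arm, the seed, pair with target messenger RNAs and lower their output. In neurons, Mir132 and Mir212 are transcribed in response to activity through the factor CREB, and in heart muscle cells they are known as promoters of hypertrophic growth. The others are textbook microRNAs of neurons (miR-128, miR-137), neural progenitors (miR-9) and hormone-secreting cells (miR-375, miR-7).

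The mature arms are shown because their sharing between hairpins set which reads could be counted to which gene. Sequences are from RefSeq on GRCm38.p6, where all 8 hairpins were found, and are written 5′ to 3′ with the seed in capitals. The 3p arms of the Mir132 and Mir212 pair have 1 seed in common:
mmu-miR-132-3p: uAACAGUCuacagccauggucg
mmu-miR-212-3p: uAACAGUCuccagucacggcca
In the mir-128 pair, both hairpins hold the 3p arm and each has a 5p arm of its own:
mmu-miR-128-3p: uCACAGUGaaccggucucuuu
mmu-miR-128-1-5p: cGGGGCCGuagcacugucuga
mmu-miR-128-2-5p: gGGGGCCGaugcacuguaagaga
In Mir7-1, the 5p arm is also that of Mir7-2, and the 3p arm is its own:
mmu-miR-7a-5p: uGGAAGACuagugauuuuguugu
mmu-miR-7a-1-3p: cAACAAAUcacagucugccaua
Both arms of Mir9-2 are also those of Mir9-1 and Mir9-3:
mmu-miR-9-5p: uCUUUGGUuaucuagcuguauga
mmu-miR-9-3p: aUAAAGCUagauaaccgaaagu
Mir137 has its own arms, of which the 3p arm is the one known from neurons:
mmu-miR-137-3p: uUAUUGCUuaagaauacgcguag

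The 3p arms of miR-132 and miR-212 were identical at 17 of 22 positions, counted from the 5′ end. The 5 differences, with the miR-132 base first, were A10C, C14U, U17C, U20C and G22A, all of them outside the seed. No other mature arm of the RefSeq table had the seed AACAGUC. Despite this likeness, the Mir132 hairpin shared no stretch of more than 10 bases with any other hairpin of the table, and the Mir212 hairpin none of more than 11. The stretch in common was 23 bases between Mir128-1 and Mir128-2, 24 bases between Mir7-1 and Mir7-2, and 33 bases between Mir9-2 and Mir9-1. Of the 15 arms listed for the 8 genes, 10 lay in 1 hairpin only, and these included both arms of Mir132, Mir212 and Mir137. For Mir375 the table lists 1 arm, miR-375-5p.

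**Figure D1:**
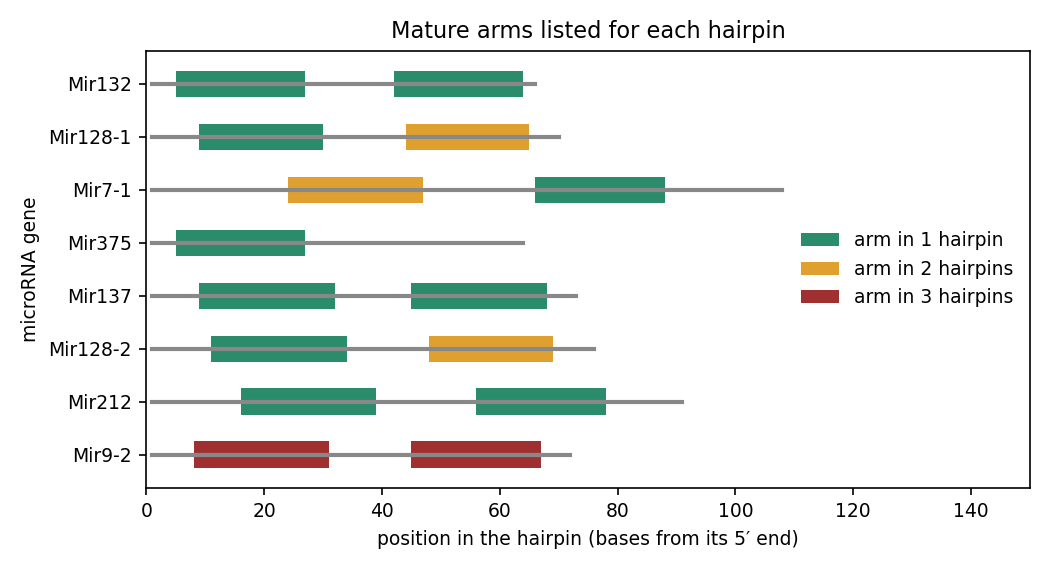
Mature arms (coloured bars) drawn to scale along each hairpin (grey line), with position in bases from the hairpin's 5′ end on the x axis and colour for the number of hairpins in the RefSeq table that hold the arm. Mir132, Mir212 and Mir137 have 2 arms of their own, the mir-128 genes and Mir7-1 have 1 each, Mir9-2 has 0, and Mir375 is drawn with the 1 arm listed, miR-375-5p.

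Sharing matters because reads that fit several places were given to no gene. In replicate 1, 27.1% of all reads were of this kind and 48.5% were counted on the strand of a microRNA gene. In replicate 2 the shares were 25.3% and 49.8%. The tables give 1 count per gene and not per arm, so which arm the counts of a gene came from is not known. Across 916 genes matched to the RefSeq table, 35 had no arm of their own, and 25 of these (71.4%) had 0 counts in both libraries. Among the 881 genes with an arm of their own, 281 (31.9%) were at 0. These shares describe the tables, since genes with copies also differ in other ways.

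The libraries held 4478599 and 5279908 sense counts, and levels are given as CPM, the share of these counts scaled to a total of 1000000. A read spans a whole mature microRNA, so counts were compared between genes without a correction for hairpin length. Differences between microRNAs in ligation or amplification were not measured and are part of every comparison between genes. At this depth 1 count was worth 0.223 CPM in replicate 1 and 0.189 CPM in replicate 2. The cardiac microRNAs Mir208a, Mir208b and Mir499 of myosin heavy chain introns checked the tissue label and stood at 9885 ± 160, 50918 ± 1313 and 2138 ± 34.1 CPM (SD, n = 2). Of the neuron markers Mir124a-1, Mir124a-2, Mir124a-3 and Mir9-3, Mir124a-2 and Mir124a-3 had no count, and all 4 together held 9 and 5 counts. These low counts do not check for neurons, because the mir-124 and mir-9 genes are copies that share mature arms, and reads that fit several copies are in no gene's count. Other neural genes, given below, had higher counts. Mir9-1 was not found by symbol among the genes counted.

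Mir132 had the most counts of the 8 genes. It had 392 counts (87.5 CPM, 95% Poisson interval 79.1 to 96.6) in replicate 1 and 488 counts (92.4 CPM, 84.4 to 101) in replicate 2, a mean of 90.0 ± 3.46 CPM (SD, n = 2). Both libraries lay within each other's interval, and the gene ranked 187 of 1973 by mean CPM. Intervals here and below cover counting error only, and not the spread between tissue samples or libraries. Reads copied by PCR are not independent molecules, so the intervals can also be too narrow for counting error. The genes nearest in level were Mir205 (91.2 ± 11.4 CPM) and Mir412 (91.8 ± 8.32 CPM) above it and Mir345 (87.7 ± 0.334 CPM) and Mir770 (83.4 ± 3.65 CPM) below it (SD, n = 2). All but Mir770 lay within 1 SD of Mir132, taking the SD of Mir132, and with 2 libraries no likeness of pattern across samples could be measured.

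Mir212, the partner of Mir132, stood far below it. Counts were 49 in replicate 1 (10.9 CPM, 95% Poisson interval 8.09 to 14.5) and 72 in replicate 2 (13.6 CPM, 10.7 to 17.2), a mean of 12.3 ± 1.91 CPM (SD, n = 2) and rank 281. Within a library, Mir132 exceeded Mir212 by a ratio of 8.00 in replicate 1 (exact 95% interval 5.93 to 11.0) and 6.78 in replicate 2 (5.28 to 8.81). The mean ratio was 7.39 ± 0.864 (SD, n = 2), and Mir132 lay above Mir212 in both libraries. Nearest to Mir212 in level were Mir18b (12.4 ± 2.04 CPM) and Mir291a (12.5 ± 3.48 CPM) above and Mir325 (12.1 ± 1.26 CPM) and Mir8114 (12.0 ± 2.81 CPM) below (SD, n = 2), all within 1 SD of Mir212.

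The pair lies on chromosome 11 of GRCm38, the assembly also called mm10, on the plus strand. Mir212 (ENSMUSG00000065590.1) spans 75173388 to 75173478 and Mir132 (ENSMUSG00000065537.1) spans 75173682 to 75173747, so that 203 bases separate the hairpins. GENCODE M21 places each in an intron of 1700016P03Rik, a noncoding transcript of the same strand, and the nearest protein-coding gene is Ovca2. The 7.39-fold difference in counts therefore lay between neighbours within introns of 1 gene, and whether they share an intron was not checked. Summed, the genes with the seed AACAGUC reached 98.5 and 106 CPM in replicates 1 and 2.

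The mir-128 genes lie apart, each in an intron of a protein-coding gene. Mir128-1 (ENSMUSG00000065520.1), at 128202361 to 128202430 on the plus strand of chromosome 1 in R3hdm1, had 276 and 312 counts in replicates 1 and 2 (61.6 and 59.1 CPM), a mean of 60.4 ± 1.79 CPM (SD, n = 2). Mir128-2 (ENSMUSG00000065441.1), at 112118636 to 112118711 on the minus strand of chromosome 9 in Arpp21, had 66 and 67 counts (14.7 and 12.7 CPM), a mean of 13.7 ± 1.45 CPM (SD, n = 2). Mir128-1 exceeded Mir128-2 by a ratio of 4.18 in replicate 1 (exact 95% interval 3.19 to 5.56) and 4.66 in replicate 2 (3.57 to 6.16), a mean of 4.42 ± 0.336 (SD, n = 2). This ratio compares reads that could be told apart, and reads of the 3p arm that fit both hairpins are in neither count, so the level of mature miR-128-3p was not measured.

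Mir137, which in neurons is linked to differentiation and synapses, had 86 and 84 counts in replicates 1 and 2 (19.2 and 15.9 CPM), a mean of 17.6 ± 2.33 CPM (SD, n = 2). The gene (ENSMUSG00000065569.1) lies at 118433857 to 118433929 on the plus strand of chromosome 3, in an exon of the noncoding transcript Gm26871. Both its arms are found in no other hairpin of the RefSeq table.

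The endocrine members Mir7-1 and Mir375 had nearly equal means and changed places between the libraries. Mir7-1 had 193 and 192 counts in replicates 1 and 2 (43.1 and 36.4 CPM), a mean of 39.7 ± 4.76 CPM (SD, n = 2). Mir375, a regulator of insulin secretion in pancreatic islets, had 132 and 257 counts (29.5 and 48.7 CPM), a mean of 39.1 ± 13.6 CPM (SD, n = 2). The ratio of Mir7-1 to Mir375 was 1.46 in replicate 1 (exact 95% interval 1.17 to 1.84) and 0.747 in replicate 2 (0.616 to 0.904), each beyond counting error and in opposite directions, so their order was not fixed by these libraries. Mir7-1 (ENSMUSG00000065434.1) lies at 58392779 to 58392886 on the minus strand of chromosome 13, in an intron of Hnrnpk, a gene of a ubiquitous RNA-binding protein. Mir375 (ENSMUSG00000065616.2) lies at 74900658 to 74900721 on the minus strand of chromosome 1 and overlaps no other annotated gene, with Cfap65 the nearest coding gene.

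The other genes of the mir-7 family were close to 0. Mir7-2 had 3 and 5 counts and Mir7b, whose 5p arm differs from miR-7a-5p by A10U (the miR-7a base first, counted from the 5′ end), had 9 and 14 counts. Mir7-1 and Mir7-2 each have a 3p arm found in 1 hairpin only and share the 5p arm. Both arms of Mir7b are found in 1 hairpin only. Some reads could thus be counted for all 3 genes, but by unlike sets of arms. Reads of miR-7a-5p that fit both Mir7-1 and Mir7-2 are in neither count, so the level of mature miR-7a-5p was not measured. Against the 39.7 CPM of Mir7-1, Mir7-2 stood at 0.808 ± 0.196 CPM and Mir7b at 2.33 ± 0.454 CPM (SD, n = 2).

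Mir9-2 had 0 counts in both libraries, which allows levels of up to 0.670 and 0.568 CPM in replicates 1 and 2 by a one-sided limit of 3 counts. The two-sided 95% Poisson intervals used for the other genes reach 0.824 and 0.699 CPM. These limits hold for reads that could be counted to the gene and not for mature miR-9, because both arms are also those of Mir9-1 and Mir9-3. Mir9-3 had 9 and 4 counts, or 1.38 ± 0.885 CPM (SD, n = 2). Mir9-2 (ENSMUSG00000065424.1) lies at 83738814 to 83738885 on the plus strand of chromosome 13, in an exon of the long noncoding RNA gene C130071C03Rik.

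**Figure D2:**
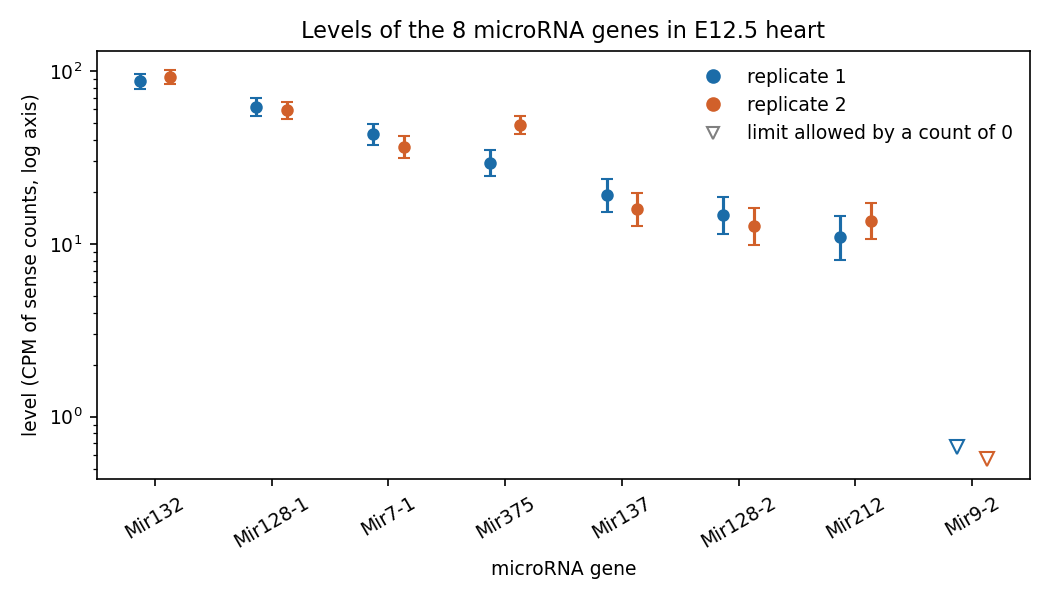
Level of each gene in CPM of sense counts on a log axis, with 1 point per library, 95% Poisson counting intervals as bars, and open triangles for the limit that a count of 0 allows. Mir132 leads in both libraries at 87.5 and 92.4 CPM, Mir375 shows the widest gap between libraries (29.5 and 48.7 CPM), and Mir9-2 has no count.

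In order of mean CPM the genes were Mir132, Mir128-1, Mir7-1, Mir375, Mir137, Mir128-2, Mir212 and Mir9-2. The order is one of counts given to a gene and not of mature microRNA. Mir132, Mir212 and Mir137 have 2 arms of their own, the mir-128 genes and Mir7-1 have 1 each, and Mir9-2 has 0. Reads of shared arms that fit several hairpins are in none of these counts. Mir132 exceeded Mir128-1 by a ratio of 1.49 ± 0.102 (SD, n = 2), and Mir128-1 exceeded Mir7-1 by 1.53 ± 0.138 (SD, n = 2), with exact intervals above 1 in both libraries for both ratios. Mir375 stood above Mir137 by ratios of 1.53 in replicate 1 (exact 95% interval 1.16 to 2.04) and 3.06 in replicate 2 (2.38 to 3.96). Neighbours among the lowest 3 genes with counts did not differ beyond counting error. The ratio of Mir137 to Mir128-2 had intervals of 0.935 to 1.82 and 0.899 to 1.76 in replicates 1 and 2, and that of Mir128-2 to Mir212 had 0.917 to 1.99 and 0.657 to 1.32. Mir137 was above Mir212 in both libraries, by a ratio of 1.76 in replicate 1 (exact 95% interval 1.22 to 2.55) and 1.17 in replicate 2 (0.841 to 1.62), beyond counting error in replicate 1 only. This last pair was compared after the values were seen.

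Together the 8 genes took 0.0267% of the sense counts in replicate 1 (95% Poisson interval 0.0252 to 0.0282%) and 0.0279% in replicate 2 (0.0265 to 0.0293%), a mean of 0.0273% ± 0.000862 (SD, n = 2). Of the 8, 7 reached 10 CPM in both libraries, as did 284 of the 1973 genes in the tables. Per count of Mir132 there were 731 and 670 counts of the summed cardiac microRNAs Mir208a, Mir208b and Mir499 in replicates 1 and 2. For Mir212 the corresponding numbers were 5846 and 4541. In whole hearts, fewer cells of a type and less RNA per cell cannot be told apart, so these ratios do not show which cells held the microRNAs.

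Of 16 further neural and endocrine microRNA genes that were counted, 7 stood at 10 CPM or more in each library and 2 had no count. This list took 0.0316% ± 0.00298 of the sense counts (SD, n = 2). Its median level was 6.02 CPM and that of the 8 genes was 28.3 CPM, with genes at 0 included in both. The list holds copies that share arms, among them the mir-124 genes, Mir9-3 and Mir7-2, and their reads are partly uncounted. Members and list were also chosen with earlier results of these data known. The medians therefore do not show that the 8 genes stand high among neural microRNAs. The median of 2.53 CPM over the 712 genes with any count leaves genes at 0 out. Mir138-2 and Mir138-1, of a family known for limiting dendritic spine size, led the list. Mir138-2 had 475 and 707 counts (106 and 134 CPM) in replicates 1 and 2 and lay above Mir132 in both. Its ratio to Mir132, computed after the values were seen, was 1.21 (exact 95% interval 1.06 to 1.39) and 1.45 (1.29 to 1.63). Mir138-1 had 260 and 364 counts (58.1 and 68.9 CPM), near the level of Mir128-1. Both mir-138 hairpins hold the 5p arm, so reads that fit both are in neither count. The other genes of the list ranged from 0 to 32.7 CPM in mean level.

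**Figure D3:**
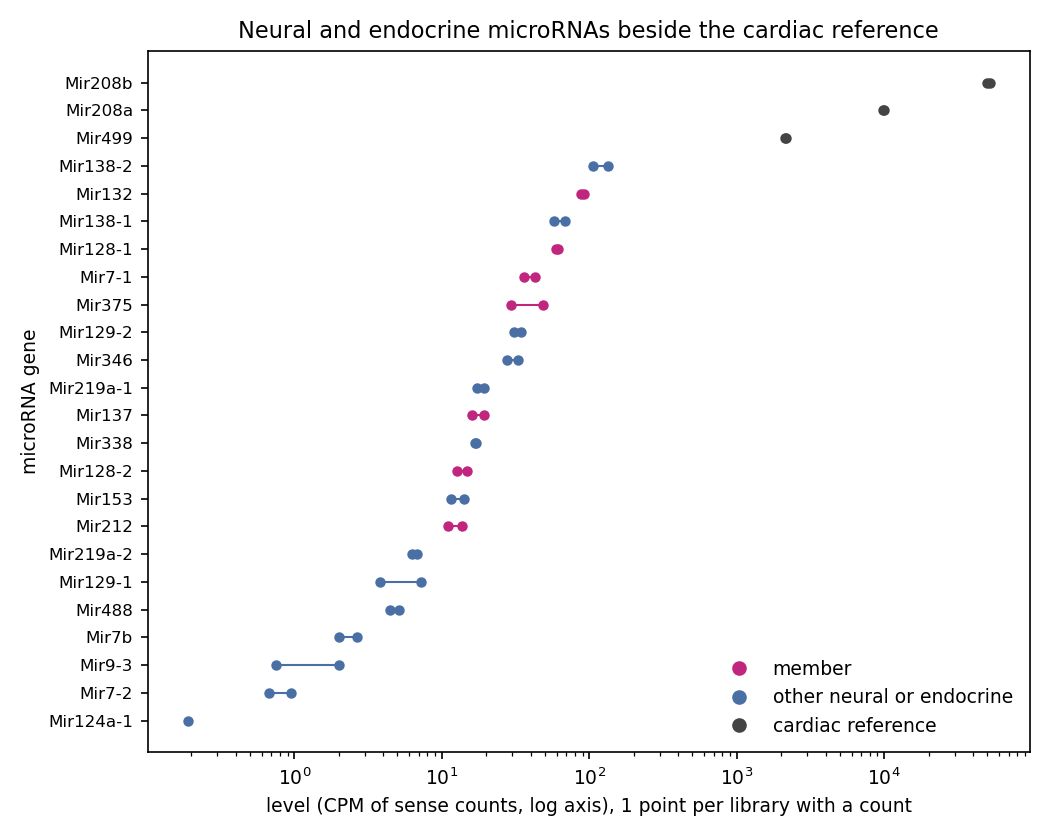
Level of each gene with a count, in CPM of sense counts on a log axis, with 1 point per library with a count and a line between the libraries. Mir138-2 (106 and 134 CPM) lies above Mir132, the 3 cardiac genes stand between 2114 and 51846 CPM, and Mir124a-1, with 1 count in replicate 2, is lowest.

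Beside microRNAs known from cardiac hypertrophy in the adult, Mir132 and Mir212 stood low. The 13 genes of that list had a median level of 1307 CPM and took 7.18% ± 0.231 of the sense counts (SD, n = 2). Mir21a, known from cardiac fibroblasts, led at 28206 ± 209 CPM, followed by Mir23a, which is linked to muscle atrophy control, at 16862 ± 1488 CPM (SD, n = 2). Mir199a-1, at 3.23 ± 0.784 CPM (SD, n = 2), was the 1 gene of the list below Mir212. Whether other hairpins share the arms of Mir199a-1 is not given here, so its count may leave out reads that fit several places. Mir222, at 14.1 and 18.8 CPM in replicates 1 and 2, was close to Mir212, and Mir221, at 26.3 and 25.2 CPM, lay between Mir212 and Mir132. The list includes the cardiac genes Mir208a and Mir499 and was chosen by what its genes are known for in heart, so its high levels are not independent of that choice.

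The replicates were compared gene by gene with a two-sided exact binomial test of the counts, with Benjamini-Hochberg adjustment over 712 genes. It compares these 2 libraries and not conditions. Of 7 members with a count, 1 was called at an adjusted p of 0.05, against 16.7% of all genes tested. Mir375 was higher in replicate 2 by a ratio of 1.65 (95% counting interval 1.33 to 2.05, log2 ratio 0.72), with an adjusted p of 2.07e-05 in the exact binomial test. With a minimum ratio of 2 in addition, 0 members were called, against 0.421% of all genes. An edgeR exact test with the spread estimated from the same libraries called 0 members and 2 genes in all. The differences between the 2 libraries set that spread and were then tested against it, so this test could call few genes.

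Since Mir375 is known from endocrine cells and also from epithelia, the marker lists of those cells are given beside it. The erythroid and liver lists are added, and these marker genes were named after their values were seen. Lists of other cell types are not compared here. The other endocrine markers were Mir7-2, with 3 and 5 counts, and Mir7b, with 9 and 14 counts in replicates 1 and 2. Their ratios of replicate 2 to replicate 1 were 1.41 and 1.32. The endocrine member Mir7-1, outside this marker list, had more counts, 193 and 192, and a ratio of 0.844. The 5 epithelial markers, Mir200a, Mir200b, Mir200c, Mir141 and Mir429, summed to 0.0735% and 0.0727% of the sense counts in replicates 1 and 2. Of these, 4 had a ratio of replicate 2 to replicate 1 above 1, and 2 were called higher in replicate 2 by the exact binomial test, Mir141 (ratio 1.67, 55 and 108 counts) and Mir200c (ratio 1.24, 375 and 548 counts). Mir429, the most abundant, was called lower (ratio 0.882, 2059 and 2142 counts). The erythroid markers summed to 0.0926% and 0.181%, with a ratio of 2.17 for Mir451a and 0.897 for Mir144. The liver marker Mir122 stood at 0.0181% and 0.00324%. Their part in the result for Mir375 was not tested.

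Among the 6 other members with counts, 2 had a ratio above 1 and 4 below. Mir212 had a ratio of 1.25 (95% counting interval 0.855 to 1.83) and Mir132 one of 1.06 (0.923 to 1.21). Mir128-1 stood at 0.959 (0.813 to 1.13) and Mir128-2 at 0.861 (0.604 to 1.23). Mir7-1 had a ratio of 0.844 (0.687 to 1.04) and Mir137 one of 0.829 (0.606 to 1.13). Each of these 6 intervals held 1, so no difference between the libraries was detectable for these genes at this depth. The median absolute log2 ratio was 0.24 over the 7 members and 0.20 over 444 genes with counts in both libraries and at least 10 in total.

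**Figure D4:**
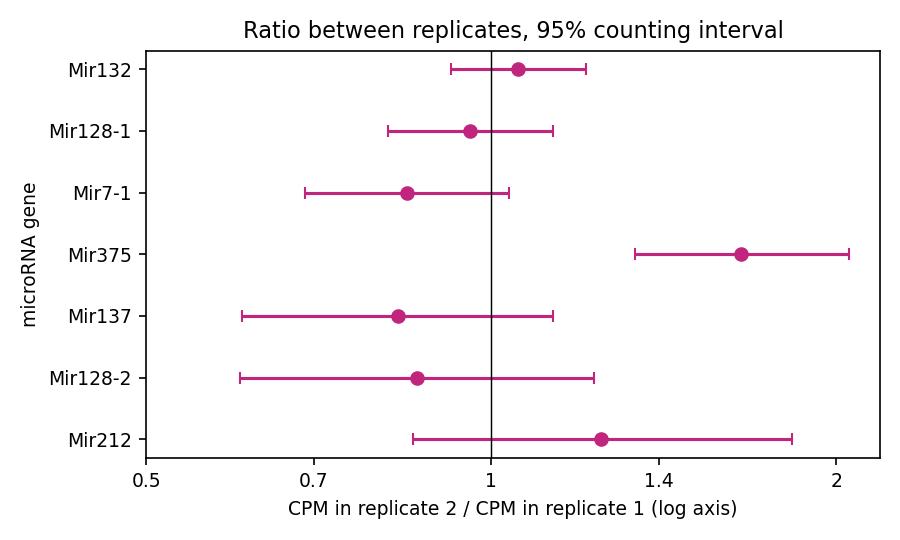
Ratio of CPM in replicate 2 to CPM in replicate 1 on a log axis for the 7 members with counts, with 95% counting intervals as bars and a line at a ratio of 1. Mir375, at 1.65, is the 1 gene whose interval lies wholly on one side of the line.

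**Figure D5:**
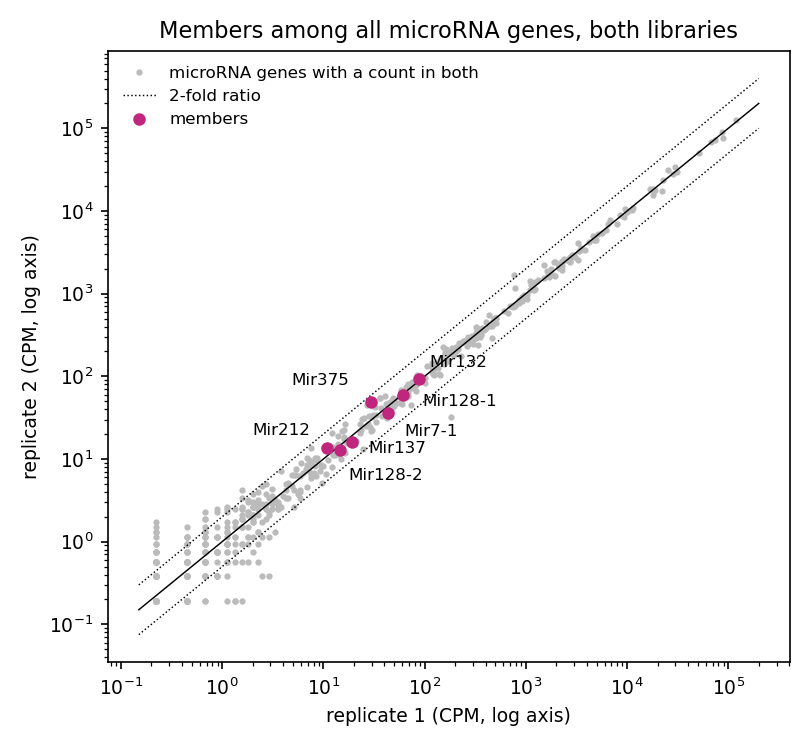
CPM in replicate 1 against replicate 2 on log axes for the 586 genes with a count in both libraries, with the 7 members in colour, a solid line at equality and dotted lines at a 2-fold ratio. All 7 members lie between the dotted lines, with Mir375 farthest from equality.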

How the data were processed

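Small RNA of E12.5 mouse heart was measured in 2 libraries. The authors deposited raw counts of reads per microRNA gene, 1 table per library, on mm10 with annotation M4, per the labels and the deposited descriptions. For the aligner and the counter, names were not given in the sources used here. In each of the tables, 3 columns hold counts, read from their sums as without regard to strand, sense and antisense. Sense counts were used. The 4 rows that name no gene were left out of library sizes.

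Identifiers were matched without version to GENCODE M21. Identifiers are printed with the version of the deposited counts, and positions are those of M21. The version differed for 6 of the 8 members, so the interval counted may differ from the one given. CPM was computed over all sense counts. Poisson intervals and exact binomial intervals for ratios are at 95%. The binomial test was tested on simulated data. The simulated counts were Poisson with no added spread between replicates, so this does not show how the test performs on these libraries. Python 3.11.15 (scipy 1.17.1, pandas 2.3.3, numpy 2.4.6, matplotlib 3.10.9), R 4.3.3, edgeR 4.0.16 and DESeq2 1.42.0 were used. Alternatives changed the denominator, strand column, scaling, low count filter and test, and left out each replicate.

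Members and lists were chosen with earlier results of these data known. Named were all members, the other mir-128, mir-7 and mir-9 genes, the cardiac genes, the 2 highest genes and those at 0 of the neural list, the 2 highest of the hypertrophy list, and the 2 genes next above and below Mir132 and Mir212 in level. Mir199a-1, Mir221 and Mir222 were named after their values were seen, as were the marker genes beside Mir375.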

Additional observations from a re-analysis of the deposited data

Results flagged for a closer look

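Reads outside the sense counts stood above the limit of 3 counts in a few places. Antisense counts at Mir219a-1 numbered 6 and 5 in replicates 1 and 2, beside 86 and 91 sense counts. At Mir338 there were 8 antisense counts in replicate 2, beside 90 sense counts, and 2 in replicate 1. All 8 genes described above had 0 antisense counts in both libraries. Reads that fit several places, which hold any reads of miR-9, miR-128-3p and miR-7a-5p that could not be told apart, were 27.1% and 25.3% of all reads in replicates 1 and 2.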

How the results depend on the processing

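The share held by the 8 genes was 0.0134% with all reads as the denominator, 0.0261% with counts without regard to strand, and 0.0159% when the sum was kept to the 4 members with no numbered copy (Mir132, Mir212, Mir137 and Mir375). The cause is the construction of each alternative, which changes the denominator or the members. With edgeR's exact test and 1 dispersion for all genes, 2 genes were called in place of 119, and 0 members in place of 1. That dispersion came from the same differences that were tested, so few calls were possible. The call of Mir375 rests on a test that holds counting error alone. The call of Mir375 was kept with at least 10 counts in total, with TMM effective library sizes, with DESeq2 size factors and with counts without regard to strand. The ratios of Mir132 to Mir212 and of Mir128-1 to Mir128-2 do not depend on scaling or, with 0 antisense counts, on the strand column, so these alternatives say nothing about their stability. With all reads as the denominator, levels were 0.491 to 0.493 times the values given, and under the 2 scalings they were 0.999 to 1.002 times them. Leaving out a replicate moved the level of Mir375 most, to 1.25 times its mean without replicate 1 and 0.754 times without replicate 2. The binomial test needs both libraries and was not run with 1 left out. At this depth the counting intervals left neighbours among Mir137, Mir128-2 and Mir212 unseparated, and the copies of mature arms limited Mir9-2, the mir-128 genes and Mir7-1.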
